A study of Homo sapiens with 12 samples.

Results

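RS4:11 cells exposed to obatoclax at 3 times its EC50 were compared with RS4:11 cells exposed to vehicle, over all genes measured. The comparison rests on 4 of the 12 arrays of the series, taken by their labels: 2 labelled RS4:11 vehicle and 2 labelled RS4:11 3xEC50. RS4:11 is an established line of B cell precursor acute lymphoblastic leukaemia that carries a fusion of KMT2A (MLL) with AFF1 (AF4), and both groups are of this line. Cells were treated 24 h after plating and harvested after 6 h. The dose is a multiple of the EC50 (the concentration giving an intermediate effect) in a 72 h assay, and its molar value is not given in the sources used here. The other 8 arrays hold RS4:11 at EC50 and SEM-K2, a second KMT2A-AFF1 line, under the same 3 conditions. The labels call the samples of a group biologic replicates without saying that they came from separate cultures, so a p-value here reflects the spread of these samples alone, which may be technical.

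Obatoclax is a small molecule of the BH3 mimetic class, made to occupy the groove with which antiapoptotic BCL2 family proteins hold their proapoptotic partners. The integrated stress response is the pathway in which phosphorylation of the initiation factor eIF2 slows translation while the transcription factor ATF4 is made, and ATF4 drives genes that import and make amino acids and load them on transfer RNAs. The unfolded protein response adjusts the chaperones of the endoplasmic reticulum (ER) to the load of secretory proteins. The lysosome supplies amino acids by degradation, and its genes are driven by TFEB and its relatives, which the folliculin and RAG GTPase proteins hold in check together with the kinase mTORC1.

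The values are log2 GCRMA values, 1 per probe set, so that a difference of 1 is a doubling, and no count or depth lies behind them. A value under 4 was read as not above background. Between 41.8% and 42.4% of the probe sets lay above this floor on the 4 arrays. RS4:11 vehicle replicate 1 had the highest 18S ribosomal RNA signal, at 9.85 against 5.20 to 6.98 on the other 11 arrays. The part of this signal in the results was not tested, and values without this array are given below. The 3' minus 5' differences of ACTB (0.87 to 1.03) and GAPDH (0.09 to 0.14) were close on the 4 arrays. The lineage of the line was checked against its markers, and telling RS4:11 from SEM-K2 was not part of this check. PAX5, the factor that commits cells to the B lineage, lay between 12.40 and 12.66, the surrogate light chain genes VPREB1 and IGLL1 between 12.65 and 14.60, and the signalling subunit gene CD79A between 11.55 and 12.52. Of 34 B cell precursor genes with a probe set, 32 lay above the floor on all 4 arrays, but MME (CD10) lay at 2.21 to 2.24. MEIS1, a target of KMT2A fusions, lay between 10.61 and 10.94. Some markers of myeloid cells (MPO, CD14), T cells (CD3D, CD3E, CD2) and platelets (PF4) were under the floor on all 4 arrays. Other markers of those lists were not: 4 of 16 myeloid, 4 of 18 T and NK, 3 of 14 erythroid and megakaryocyte and 4 of 18 fibroblast and epithelial markers lay above the floor on some RS4:11 array. In the T and NK list these were ZAP70 (9.44 to 9.82), NKG7 (9.29 to 9.98), LCK (8.90 to 9.50) and GATA3 (6.49 to 8.15), and the platelet integrin gene ITGA2B lay between 5.52 and 6.30. The myeloid list held CSF1R (6.50 to 6.62) and SPI1 (6.91 to 7.51) above the floor. In the fibroblast and epithelial list COL1A1 (6.64 to 7.02) and KRT8 (4.86 to 4.92) were among those above it.

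The comparison asks which transcripts differed after 6 h at the higher dose. Limma called 0 of 10561 genes (0%) at an adjusted p under 0.05, with a smallest adjusted p of 0.245 that 7 genes shared. It placed 267 genes higher (2.53%) and 251 lower (2.38%) at an unadjusted p under 0.05, 518 in all, where chance alone gives about 528. For an unadjusted p under 0.01 there were 141 genes where chance alone gives about 106. Since no single gene passed the threshold, the ranking is described, with the values behind it. The replicate number as a block over all 12 arrays also called 0 genes, with 531 higher and 500 lower at an unadjusted p under 0.05. A fit of the 6 RS4:11 arrays alone with this block called 1 gene, USP18 (adjusted p = 0.0298 by limma). Single arrays moved the counts at an unadjusted p under 0.05: 620 genes were higher without vehicle replicate 1, 116 without vehicle replicate 2 and 156 without 3xEC50 replicate 1.

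Differences were mostly small. The median of all differences was 0.02 and that of their absolute values 0.15, against a median standard error (SE) of 0.21. At least 2-fold differences were seen in 42 genes that were higher and 29 that were lower. Both 3xEC50 arrays lay above both vehicle arrays for 1947 genes (18.4%) and below them for 1676 (15.9%). Those shares are the background for every count of separate arrays given for a gene list. Among the 25 genes with the smallest p, 18 were higher and 7 lower, and among the first 500, 256 were higher and 244 lower. The difference between the arrays numbered 1 and the difference between those numbered 2 correlated at r = 0.389 across genes, which are not independent replicates. With the numbers crossed (3xEC50 1 minus vehicle 2, 3xEC50 2 minus vehicle 1) it was r = -0.187, so the value depends on the pairing. The plot of size against rank shows a few genes on each side well beyond the bulk.

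**Figure D1:**
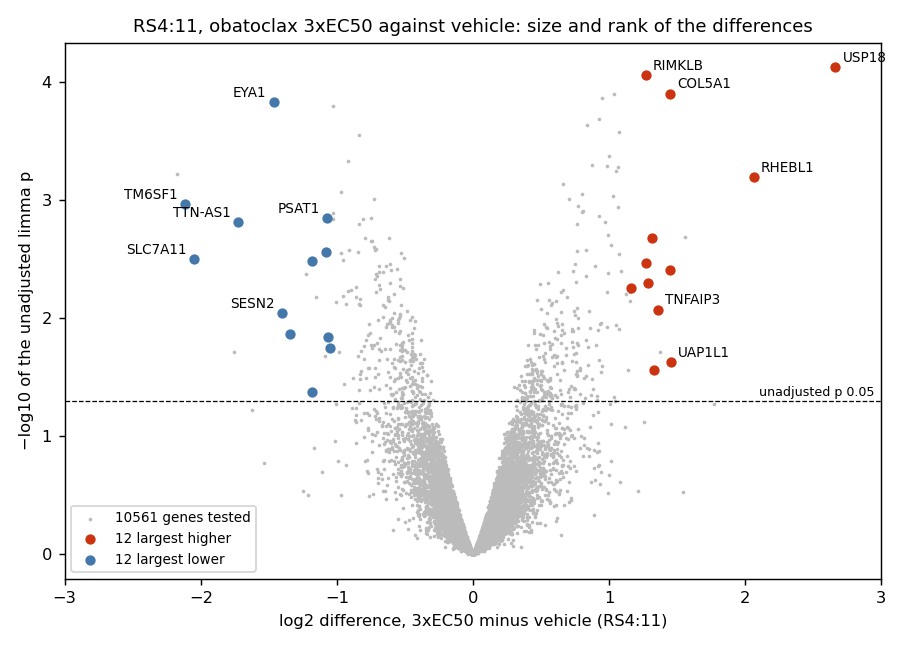
Log2 difference between RS4:11 at 3xEC50 and vehicle (x axis) against −log10 of limma's unadjusted p (y axis) for 10561 genes, with the 12 largest differences in each direction in colour. USP18 lies farthest to the right at 2.66, and no gene passed the adjusted threshold.

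USP18, an interferon-induced protease that removes ISG15 from proteins and restrains interferon signalling, had the largest difference. It read 3.83 and 4.03 on vehicle arrays 1 and 2 and 6.37 and 6.82 on 3xEC50 arrays 1 and 2. Vehicle lay at the floor and 3xEC50 clearly above it, with no overlap. The difference was 2.66 ± 0.40 (SE, n = 2 and 2, adjusted p = 0.245 by limma), at least 6.03-fold from the floor. Each SE given with a difference comes from limma and pools the spread within all 6 groups of the series. RHEBL1, a GTPase related to the mTORC1 activator RHEB, read 6.28 and 5.11 in vehicle and 7.87 and 7.64 at 3xEC50. The vehicle arrays were far apart, yet both lay lower, and the difference was 2.06 ± 0.41 (adjusted p = 0.357). COL5A1, a fibrillar collagen chain, read 5.89 and 5.58 in vehicle and 7.35 and 7.01 at 3xEC50. Its difference was 1.45 ± 0.23 (adjusted p = 0.245), and its 3 probe sets above the floor ran from 1.45 to 3.60. Their mean gave 2.49, the single call among 9867 genes in that setting (adjusted p = 0.0074).

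RIMKLB, a ligase of the glutamate peptide family, stood at 7.42 and 7.58 in vehicle and at 8.59 and 8.95 at 3xEC50, higher by 1.27 ± 0.19. It shared the smallest adjusted p of 0.245 by limma, and its 5 probe sets ran from 0.67 to 1.27. GPR18, a G protein-coupled receptor, stood at 8.20 and 7.64 in vehicle and at 9.41 and 9.33 at 3xEC50, higher by 1.45 ± 0.38. TNFAIP3, which encodes the NF-kappaB inhibitor A20, stood at 5.40 and 5.45 in vehicle and at 6.85 and 6.72 at 3xEC50, higher by 1.36 ± 0.41. The 2 arrays of each group nearly coincided for TNFAIP3, and the gap between the groups was far wider. The other genes among the 12 largest were UAP1L1 (1.45), H2AC6 (1.33), the autophagy gene WIPI1 (1.31), the tyrosine kinase gene TEC (1.28), the tyrosine phosphatase gene PTPRE (1.27) and the transcription factor gene IRF5 (1.16). GSDME, the gasdermin that caspase cleavage turns into a pore, ranked 4 by p and was singled out after its values were seen. It read 9.73 and 9.60 in vehicle and 10.73 and 10.67 at 3xEC50, higher by 1.04 ± 0.17 (adjusted p = 0.245 by limma).

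SLC7A11, which imports cystine in exchange for glutamate, had the largest difference downward once values under the floor were set to it. It read 7.63 and 6.88 in vehicle and 5.71 and 4.70 at 3xEC50. The groups did not overlap, and the gap between their nearest arrays exceeded the distance between the arrays of either group. It was lower by 2.05 ± 0.52 on the log2 scale, 4.14-fold (adjusted p = 0.549 by limma). Its probe sets showed -2.88 and -2.05. TM6SF1 read 6.99 and 5.47 in vehicle and 4.44 and 3.79 at 3xEC50, with a difference of -2.12 ± 0.45. EYA1, a phosphatase and transcriptional coactivator, read 5.10 and 5.81 in vehicle and 4.21 and 3.77 at 3xEC50, at least 2.74-fold lower (adjusted p = 0.245 by limma). SESN2, a stress-induced leucine sensor that inhibits mTORC1, read 6.63 and 5.45 in vehicle and 5.09 and 4.18 at 3xEC50, with a difference of -1.40 ± 0.43. For these genes the arrays within a group were spread widely, those of TM6SF1 in vehicle most. That the groups did not overlap was required by the rule for naming them. The others among the 12 largest were TTN-AS1 (-1.72), ANK2 (-1.34), the growth factor gene HBEGF (-1.18), the zinc transporter gene SLC39A14 (-1.18), WARS1 (-1.08), PSAT1 (-1.07), HIVEP3 (-1.06) and KLHL14 (-1.05). WARS1, PSAT1 and SLC7A11 belong to the amino acid lists described next, and SESN2 to that of the integrated stress response factors. TTN-AS1 is an antisense gene whose reading cannot be told apart from its neighbour where probes overlap both.

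**Figure D2:**
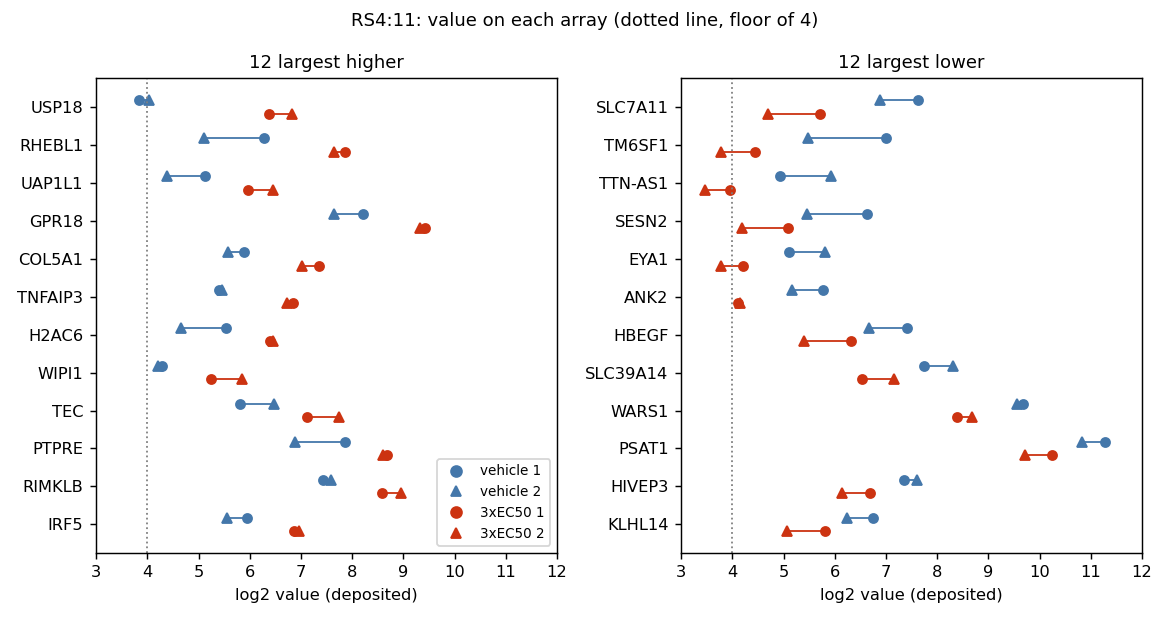
Log2 values on each RS4:11 vehicle (blue) and 3xEC50 (red) array for the 12 largest differences in each direction, with replicate 1 as circles and replicate 2 as triangles. In all 24 genes the groups do not overlap, as the rule for naming them required, and USP18, TM6SF1, TTN-AS1 and EYA1 have arrays under the floor of 4.

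Genes that load amino acids on transfer RNAs lay lower together. All 17 cytosolic aminoacyl-tRNA synthetase genes tested were below 0, with a median of -0.48, while 4858 of all 10561 genes tested were below 0 (46.0%) with a median of 0.02. Of the 17, 10 were lower and 0 higher at an unadjusted p under 0.05, and in 13 the arrays did not overlap. No member passed the adjusted threshold. In each list up to 3 members were named by smallest p among those with separate arrays, so their separation follows from this rule. GARS1, the glycyl-tRNA synthetase, read 10.59 and 10.55 in vehicle and 9.92 and 9.63 at 3xEC50, with a difference of -0.79 ± 0.19. YARS1, the tyrosyl-tRNA synthetase, read 11.29 and 11.35 in vehicle and 10.63 and 10.51 at 3xEC50. WARS1, the tryptophanyl-tRNA synthetase, read 9.68 and 9.55 in vehicle and 8.39 and 8.68 at 3xEC50. In all 3 genes the gap between the groups was wider than the distance between the arrays of either group. The median of the list was -0.51 between the arrays numbered 1 and -0.47 between those numbered 2. The 15 mitochondrial synthetase genes had a median of -0.21 with 1 of 15 lower at an unadjusted p under 0.05, -0.06 without 3xEC50 replicate 1 and -0.12 with probe sets averaged. The count of 1 was 0 without vehicle replicate 2 or 3xEC50 replicate 1, and 5 with the replicate block over all arrays.

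The enzymes that make serine, proline and asparagine and handle single-carbon units showed the same direction. Of 13 tested, 11 lay below 0 with a median of -0.42, and 7 were lower and 0 higher at an unadjusted p under 0.05, or 4 lower without vehicle replicate 1. The arrays did not overlap in 9. PYCR3, a reductase of the last step of proline synthesis, read 6.11 and 6.28 in vehicle and 5.21 and 5.13 at 3xEC50, lower by 1.03 ± 0.17 on the log2 scale (adjusted p = 0.245 by limma). PYCR1, the mitochondrial enzyme of that step, read 9.48 and 9.53 in vehicle and 8.70 and 8.65 at 3xEC50, lower by 0.83 ± 0.15. PSAT1, the aminotransferase of serine synthesis, read 11.28 and 10.83 in vehicle and 10.24 and 9.72 at 3xEC50. For both PYCR genes the arrays of a group lay far closer together than the groups did.

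Of 14 amino acid transporter genes, 10 lay below 0 with a median of -0.32, and 5 were lower and 0 higher at an unadjusted p under 0.05. They included both parts of the cystine exchanger and of the large neutral amino acid exchanger: SLC3A2, the shared heavy chain, read 9.35 and 9.06 in vehicle and 8.65 and 8.47 at 3xEC50. SLC7A5 (LAT1), the light chain that carries leucine, read 11.02 and 11.04 in vehicle and 10.26 and 9.75 at 3xEC50, lower by 1.03 ± 0.23 on the log2 scale. With SLC7A11 these 3 genes encode the subunits of both exchangers, and their arrays did not overlap, as the naming rule required. SLC38A2, a transporter known to respond to amino acid shortage, did not follow, at 12.88 and 12.64 in vehicle and 12.76 and 12.81 at 3xEC50; it was singled out after its values were seen.

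The factors and effectors of the integrated stress response did not share a direction. Of 22, 11 lay above 0 and 11 below, with a median of -0.04. It became 0.01 without 3xEC50 replicate 2, 0.03 without vehicle replicate 1, -0.17 without 3xEC50 replicate 1, -0.15 without vehicle replicate 2 and -0.12 with the filter set within RS4:11. In this list 2 were higher and 4 lower at an unadjusted p under 0.05. PCK2, the mitochondrial phosphoenolpyruvate carboxykinase, read 9.70 and 9.65 in vehicle and 9.09 and 8.65 at 3xEC50. CEBPB, a transcription factor that pairs with ATF4, read 9.52 and 9.33 in vehicle and 8.65 and 8.26 at 3xEC50. KLHL24 lay on the other side, at 9.50 and 8.92 in vehicle and 10.33 and 10.09 at 3xEC50, though its 5 probe sets ran from -0.26 to 1.12. ATF4 itself read 13.06 and 12.80 in vehicle and 12.80 and 12.34 at 3xEC50, a difference of -0.36 ± 0.24, and DDIT3 (CHOP), its partner, differed by -0.20 ± 0.22; both were singled out after their values were seen. Neither came near the threshold (adjusted p = 0.999 by limma for both).

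Promoter stretches of 3 genes of these lists are printed to show the element that ATF4 binds with its C/EBP partners, TGATG, 1 base of any kind, then AA, searched on both strands between 250 bases before and 50 bases after each gene's start in RefSeq promoters (GRCh38.p14). Capitals mark the element, and AARS1 (alanyl-tRNA synthetase), GOT1 (aspartate aminotransferase) and ASNS (asparagine synthetase) were picked, after their values were seen, as examples that hold it before their start. IARS1, YARS2 and ATF3 also hold it wholly before their start and are not shown.
AARS1: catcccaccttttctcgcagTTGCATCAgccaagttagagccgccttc
GOT1: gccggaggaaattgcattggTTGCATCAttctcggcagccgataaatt
ASNS: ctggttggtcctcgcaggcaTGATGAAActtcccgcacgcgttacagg
These lie on the minus strand at chr16:70289666-70289713, chr10:99430795-99430842 and chr7:97872449-97872496. The element was in 5 of 14 cytosolic synthetase promoters (35.7%), 2 of 9 promoters of the serine, proline and asparagine list (22.2%), 3 of 12 amino acid transporter promoters (25%), 1 of 13 mitochondrial synthetase promoters (7.69%) and 1 of 21 promoters of the stress response factors (4.76%). Of all 27305 promoters 1003 held it (3.67%), and of 8729 promoters of genes tested 146 did (1.67%). A match is a description of the sequence and does not show binding. AARS1 read 11.57 and 11.83 in vehicle and 11.03 and 11.08 at 3xEC50, lower by 0.65 ± 0.23 on the log2 scale. GOT1 was lower by 0.66 and ASNS by 0.35 ± 0.24, and ASNS did not reach an unadjusted p under 0.05.

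The chaperones and foldases of the ER lay lower as well. Of 22 tested, 18 were below 0 with a median of -0.36, and 9 were lower and 0 higher at an unadjusted p under 0.05. In 17 the 3xEC50 arrays lay below both vehicle arrays. MANF, a secreted ER stress protein, read 9.90 and 10.34 in vehicle and 9.25 and 9.16 at 3xEC50, lower by 0.92 ± 0.17 on the log2 scale (adjusted p = 0.346 by limma). SDF2L1, which works with the chaperone BiP, read 8.53 and 9.10 in vehicle and 7.80 and 7.90 at 3xEC50. CRELD2, an ER stress-induced isomerase, read 8.59 and 8.78 in vehicle and 7.82 and 8.13 at 3xEC50. The vehicle arrays were the higher ones in each of the 3, whose separation the naming rule required. The chaperone genes HSPA5 (BiP; -0.91 ± 0.22) and HSP90B1 (GRP94; -0.83 ± 0.25), singled out for their promoters, were also lower with separate arrays.

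The stretches below carry the ER stress element, CCAAT, 9 bases of any kind, then CCACG, in capitals, which ATF6 and NF-Y bind; they were chosen because HSPA5, CRELD2 and HSP90B1 were the lowest-lying chaperone genes that hold it.
HSPA5: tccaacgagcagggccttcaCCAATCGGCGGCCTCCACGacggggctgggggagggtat
CRELD2: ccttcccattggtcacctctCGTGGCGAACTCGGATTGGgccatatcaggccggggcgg
HSP90B1: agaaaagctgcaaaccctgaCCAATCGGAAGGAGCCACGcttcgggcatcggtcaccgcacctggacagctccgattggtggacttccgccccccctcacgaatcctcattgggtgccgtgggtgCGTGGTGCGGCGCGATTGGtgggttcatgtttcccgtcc
HSPA5 is read on the minus strand at chr9:125241371-125241429, CRELD2 on the plus strand at chr22:49918534-49918592 and HSP90B1 on the plus strand at chr12:103930196-103930359. The element was in 6 of 21 chaperone promoters (28.6%) in 22 of all 27305 (0.0806%) and in 13 of 8729 promoters of genes tested (0.149%). Of the 6, CRELD2, HSPA5 and HSP90B1 were lower at an unadjusted p under 0.05, CANX and CALR differed by -0.34 and -0.28, and ERO1B by 0.37. In the list of ER-associated degradation, the XBP1 arm and ER transport, 1 of 17 promoters held it, that of XBP1. That list was less one-sided, with 14 of 21 genes below 0, a median of -0.06 (-0.01 without 3xEC50 replicate 1, -0.10 without vehicle replicate 2) and 2 lower and 0 higher at an unadjusted p under 0.05. HERPUD1, which recruits the degradation machinery, read 10.68 and 10.46 in vehicle and 10.25 and 9.75 at 3xEC50. EDEM1, a lectin that marks misfolded glycoproteins, read 10.45 and 10.74 in vehicle and 10.10 and 10.22 at 3xEC50. Both had separate arrays, as the naming rule required.

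Ribosome biogenesis genes lay lower in a similar degree. Of 26, 25 were below 0 with a median of -0.43, 6 were lower and 0 higher at an unadjusted p under 0.05, and in 23 the arrays did not overlap. The median became -0.27 without 3xEC50 replicate 1 and -0.28 without vehicle replicate 2, and the count of 6 was 0 without either of these arrays. It was 15 with the replicate block over all arrays, 16 with that within each line and 18 with that over the 6 RS4:11 arrays. RRS1, a 60S assembly factor, read 11.33 and 11.57 in vehicle and 10.71 and 10.96 at 3xEC50. UTP4 of the small subunit processome read 10.81 and 11.06 in vehicle and 10.37 and 10.55 at 3xEC50. DDX21, a nucleolar helicase, read 12.16 and 12.51 in vehicle and 11.74 and 11.87 at 3xEC50. Array 2 was the higher one in both groups for each of these genes. Ribosomal protein genes did not lie lower, with 15 of 17 above 0 and a median of 0.04 (0.01 with each array centred). Heat shock protein genes were all 13 below 0, with a small median of -0.10 that was -0.04 without 3xEC50 replicate 1 and -0.19 without 3xEC50 replicate 2, and 1 lower at an unadjusted p under 0.05, the mitochondrial chaperone gene HSPA9 (-0.54 ± 0.19). Genes of the mTOR complexes and their regulators had a median of -0.07 (-0.14 without vehicle replicate 1, 0 to 2 decimals without vehicle replicate 2), with the kinase gene RPS6KB1 (-0.36) and the translation repressor gene EIF4EBP1 (-0.54) lower at an unadjusted p under 0.05.

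**Figure D3:**
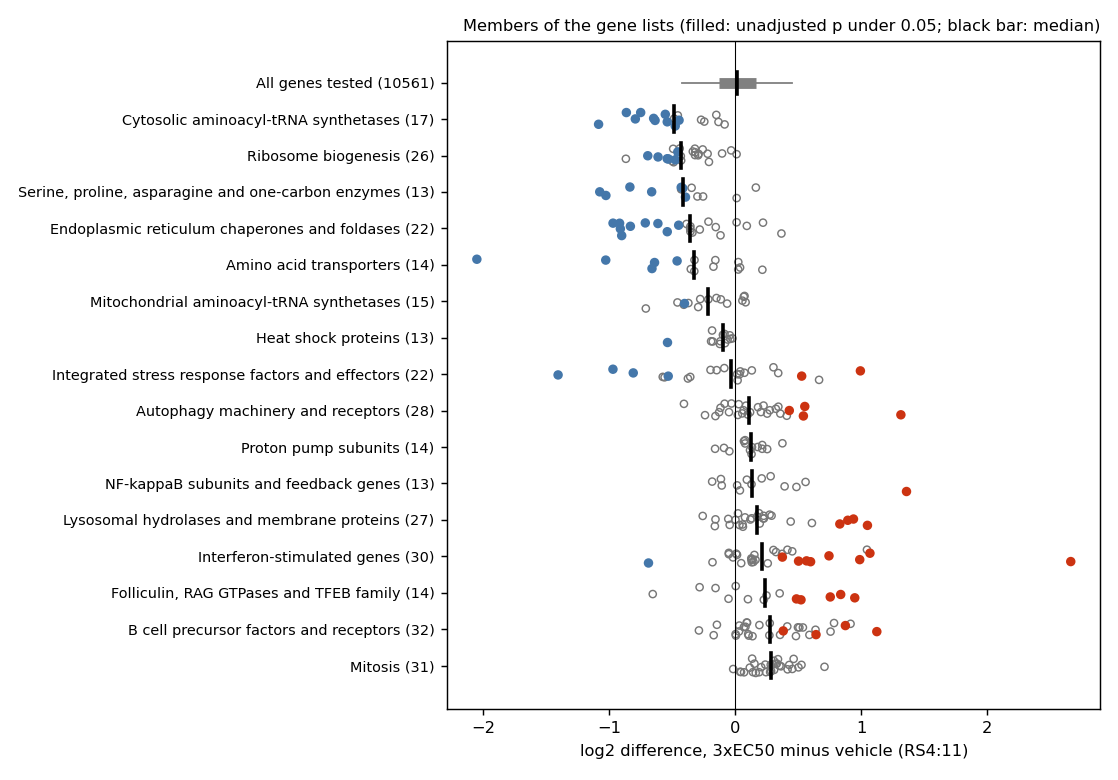
Log2 difference between RS4:11 at 3xEC50 and vehicle for each tested member of 16 gene lists (number of genes in brackets), with filled points at an unadjusted p under 0.05 and black bars at the medians. The top line shows all 10561 genes with percentiles 25 to 75 as a thick bar and percentiles 5 to 95 as a thin line; the cytosolic synthetases have the lowest median, -0.48.

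Interferon-stimulated genes lay higher. Of 30, 25 were above 0 with a median of 0.21, against 5703 of 10561 genes tested (54.0%). Among them 8 were higher and 1 lower at an unadjusted p under 0.05, and in 16 both 3xEC50 arrays lay above both vehicle arrays. The median was 0.36 without vehicle replicate 1. The count of 8 was 2 without vehicle replicate 2, 3 without 3xEC50 replicate 2 and 4 without 3xEC50 replicate 1. Besides USP18, DDX60, a helicase of the antiviral response, read 5.99 and 5.67 in vehicle and 6.77 and 7.03 at 3xEC50, higher by 1.07 ± 0.23 (adjusted p = 0.423 by limma). OAS1, which makes the oligoadenylate that activates RNase L, read 5.74 and 5.02 in vehicle and 6.19 and 6.55 at 3xEC50, higher by 0.99 ± 0.32. The single member lower at that p was ISG20, an exonuclease gene, at 8.41 and 8.77 in vehicle and 7.88 and 7.93 at 3xEC50. IFNLR1, a receptor chain for lambda interferons that is in no list and was singled out after its values were seen, ranked 16 by p with a difference of 1.06 ± 0.21.

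Folliculin and its partners stood out among the lysosomal regulators. FLCN, the folliculin gene, read 5.25 and 5.08 in vehicle and 6.02 and 6.21 at 3xEC50, higher by 0.95 ± 0.15 (adjusted p = 0.245 by limma), and ranked 5 by p. FNIP2, which encodes a folliculin partner, read 8.38 and 8.34 in vehicle and 9.20 and 9.19 at 3xEC50, higher by 0.84 ± 0.14. The 2 probe sets of FLCN above the floor ran from 0.42 to 0.95, and the 3 of FNIP2 from 0.43 to 0.84. FNIP1, the other partner gene, read 8.90 and 8.64 in vehicle and 9.44 and 9.14 at 3xEC50, higher by 0.52 ± 0.18. All 3 genes thus lay higher on both arrays, as the naming rule required, and for FNIP2 the arrays of a group nearly coincided. Of the 14 genes of the folliculin, RAG GTPase and TFEB list, 10 were above 0 with a median of 0.24, and 5 were higher and 0 lower at an unadjusted p under 0.05. The median was 0.42 without 3xEC50 replicate 2 and 0.10 with probe sets averaged, where 3 of 13 were higher. The count of 5 was 2 without vehicle replicate 2, and without 3xEC50 replicate 1 there were 2 higher and 2 lower. The others of the 5, named after their values were seen, were RRAGD, a RAG GTPase (0.75), and LAMTOR3 of its lysosomal anchor (0.49, with probe sets from -0.35 to 0.49). TFEB itself read 7.11 and 6.64 in vehicle and 7.52 and 6.13 at 3xEC50, so that its groups overlapped.

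Of 27 lysosomal hydrolase and membrane protein genes, 22 were above 0 with a median of 0.18, and 4 were higher and 0 lower at an unadjusted p under 0.05. In 9 the arrays did not overlap, all of them higher. The median was 0.09 without vehicle replicate 2 and 0.27 without vehicle replicate 1, and the count of 4 was 1 without vehicle replicate 2 and 1 without 3xEC50 replicate 1. GM2A, the GM2 ganglioside activator, read 8.18 and 8.37 in vehicle and 9.22 and 9.11 at 3xEC50, higher by 0.89 ± 0.23. NPC2, which carries cholesterol out of the lysosome, read 9.32 and 9.11 in vehicle and 10.43 and 10.09 at 3xEC50, higher by 1.05 ± 0.33. NEU1, the lysosomal sialidase, read 7.01 and 6.73 in vehicle and 7.77 and 7.63 at 3xEC50. The CLEAR core that TFEB binds, TCACG followed by TGA, was in 5 of 20 promoters of this list (25%), 2 of 9 of the proton pump list, 1 of 12 of the folliculin list and 1 of 26 of the autophagy list, against 283 of all 27305 promoters (1.04%) and 190 of 8729 promoters of genes tested (2.18%). The 5 lysosomal genes with it, CLN3, CTSA, GAA, LAMP1 and MCOLN1, differed by -0.05 to 0.19, so the promoters are not shown. Proton pump subunit genes lay above 0 in 11 of 14 cases, their median was 0.12 (0.20 without 3xEC50 replicate 1, 0.02 with probe sets averaged), and 0 had an unadjusted p under 0.05.

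Of 28 autophagy genes, 20 were above 0 with a median of 0.11, which was 0.02 without vehicle replicate 2, 0.16 without vehicle replicate 1 and 0.06 with probe sets averaged. Here 4 were higher and 0 lower at an unadjusted p under 0.05, and 2 were higher without vehicle replicate 2 or either 3xEC50 replicate. WIPI1, which binds the phosphoinositide of forming autophagosomes, read 4.28 and 4.20 in vehicle and 5.25 and 5.86 at 3xEC50, though its probe sets ran from 0.39 to 1.31. WIPI2, of the same family, read 9.56 and 9.43 in vehicle and 9.94 and 9.91 at 3xEC50, with probe sets from -0.02 to 0.43. ULK2, a kinase that starts autophagy, read 3.79 and 3.82 in vehicle, under the floor, and 4.19 and 4.50 at 3xEC50. The 3 genes had separate arrays, as the naming rule required, WIPI1 by the widest margin. Of 13 NF-kappaB genes, 10 were above 0 with a median of 0.13. Probe sets averaged gave 8 of 13 and a median of 0.02, and no filter gave 10 of 17 and 0.04. TNFAIP3 was the single one higher at an unadjusted p under 0.05.

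Most B cell precursor genes lay higher. Of 32, 29 were above 0 with a median of 0.27, and 4 were higher and 0 lower at an unadjusted p under 0.05. In 15 the arrays did not overlap upward and in 3 downward. The median was 0.12 between the arrays numbered 1 and 0.44 between those numbered 2. It was 0.14 without vehicle replicate 2, with 21 of 32 above 0, and 0.42 without vehicle replicate 1. The count of 4 was 2 without vehicle replicate 2 and 7, 14 and 13 with the replicate block over all arrays, within each line and over the 6 RS4:11 arrays. BACH2, a repressor of plasma cell fate, read 8.24 and 7.96 in vehicle and 8.80 and 9.15 at 3xEC50, higher by 0.87 ± 0.17 (adjusted p = 0.346 by limma). RAG1, a subunit of the recombinase of antigen receptor genes, read 9.73 and 8.90 in vehicle and 10.54 and 10.34 at 3xEC50, higher by 1.12 ± 0.32. CD72, a coreceptor of B cells, read 11.19 and 10.95 in vehicle and 11.71 and 11.70 at 3xEC50. The vehicle array 2 was the lowest of the 4 for all 3 genes. The 3 genes separated downward, named after their values were seen, were PAX5, IKZF1 and IL7R. PAX5 read 12.57 and 12.66 in vehicle and 12.49 and 12.40 at 3xEC50. IKZF1 read 11.69 and 11.71 in vehicle and 11.62 and 11.48 at 3xEC50. IL7R read 12.38 and 12.35 in vehicle and 12.05 and 12.11 at 3xEC50. In RNA from whole cultures, fewer cells of a type and less RNA per cell cannot be told apart. On the log2 scale the summed level of the list was 17.04 and 16.81 in vehicle and 17.15 and 17.10 at 3xEC50. The sums of the myeloid (8.54 to 8.77), T and NK (11.12 to 11.48) and fibroblast and epithelial (8.13 to 8.45) lists overlapped between vehicle and 3xEC50. That of the erythroid and megakaryocyte list was 12.89 and 12.85 in vehicle and 12.79 and 12.81 at 3xEC50. Nearly all of it was the transferrin receptor gene TFRC, at 12.86 and 12.83 in vehicle and 12.76 and 12.78 at 3xEC50. The part of these lists in the results was not tested.

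The 19 KMT2A fusion targets tested were divided, with 10 above 0 and 9 below and a median of 0.03, which was -0.01 without vehicle replicate 2, 0.11 without vehicle replicate 1, 0.18 without 3xEC50 replicate 2 and 0.01 with each array centred. By an unadjusted p under 0.05, 3 were higher and 1 lower. EYA1 was the lower one. RUNX2 read 9.41 and 9.07 in vehicle and 9.56 and 9.78 at 3xEC50, and ARID1B 9.81 and 9.54 in vehicle and 10.01 and 10.27 at 3xEC50. The probe sets of ARID1B disagreed, from -0.03 to 0.47. MEIS1, MEF2C and CDK6, singled out as well-known targets after their values were seen, differed by -0.10, -0.04 and -0.13.

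Of the BCL2 family, which obatoclax was made to act on at the protein level, BCL2 and MCL1 lay near their vehicle level in RNA, BCL2L1 was not resolved and BIK lay more than 2-fold higher. BCL2 read 11.02 and 10.98 in vehicle and 11.25 and 11.11 at 3xEC50, a difference of 0.18 ± 0.13. MCL1 read 10.81 and 10.87 in vehicle and 10.82 and 10.93 at 3xEC50, a difference of 0.03 ± 0.17 that was -0.02 without 3xEC50 replicate 2. BCL2L1 (BCL-XL) read 6.10 and 5.55 in vehicle and 6.47 and 6.62 at 3xEC50. Its SE of 0.72 was as large as the difference. That SE pools the spread within all 6 groups of the series, not that of the RS4:11 arrays alone. In SEM-K2 at 3xEC50 the BCL2L1 difference was -0.72, and 0.59 without SEM-K2 3xEC50 replicate 2. The RS4:11 arrays of BCL2L1 did not overlap between vehicle and 3xEC50. Of the 11 proapoptotic genes, BIK, a BH3-only protein, was the single one at an unadjusted p under 0.05, at 7.15 and 6.32 in vehicle and 8.03 and 7.72 at 3xEC50, higher by 1.14 ± 0.44 (adjusted p = 0.895 by limma). PMAIP1 (NOXA) differed by -0.22 ± 0.21 and BID by 0.13 ± 0.21. BNIP3L read 10.18 and 8.14 in vehicle and 10.56 and 8.99 at 3xEC50, so that array number separated the values more than treatment did; the difference was -0.41 without vehicle replicate 2, -0.17 without 3xEC50 replicate 1, 1.63 without vehicle replicate 1 and 1.39 without 3xEC50 replicate 2. Among p53 targets, MDM2, the ligase that degrades p53, was lower by 0.62 ± 0.19 on the log2 scale, with 10.97 and 11.00 in vehicle and 10.45 and 10.30 at 3xEC50. TP53INP1 read 3.20 and 3.17 in vehicle, under the floor, and 4.24 and 4.10 at 3xEC50. The 16 targets had 8 on either side of 0.

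Mitosis genes showed a shift that moved with the array number. Of 31, 30 were above 0 with a median of 0.29, yet 0 of 31 had an unadjusted p under 0.05 and in 0 did the groups separate. All 31 were higher on vehicle array 1 than on vehicle array 2, by a median of 0.91, and all 31 were higher on 3xEC50 array 1 than on 3xEC50 array 2, by a median of 0.49. Within the arrays numbered 1 the median difference was 0.08 and within those numbered 2 it was 0.43, and the replicate block over all arrays placed 3 of 31 higher, within each line 9. Leaving out an array breaks such a pair: without vehicle replicate 2 the median was -0.16, without vehicle replicate 1 it was 0.69, without 3xEC50 replicate 1 it was 0.04 and without 3xEC50 replicate 2 it was 0.54. TOP2A, the topoisomerase of dividing cells, singled out after its values were seen, read 12.27 and 11.26 in vehicle and 12.39 and 12.04 at 3xEC50. For DNA replication genes, of which 25 of 34 lay above 0, the median was 0.10, and it was -0.09 without 3xEC50 replicate 2, -0.08 without vehicle replicate 1, 0.29 without 3xEC50 replicate 1 and 0.20 without vehicle replicate 2. The plot of list levels by array sets this pattern beside those of the synthetase, serine, chaperone and ribosome biogenesis lists, in which both vehicle arrays lay above both 3xEC50 arrays.

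**Figure D4:**
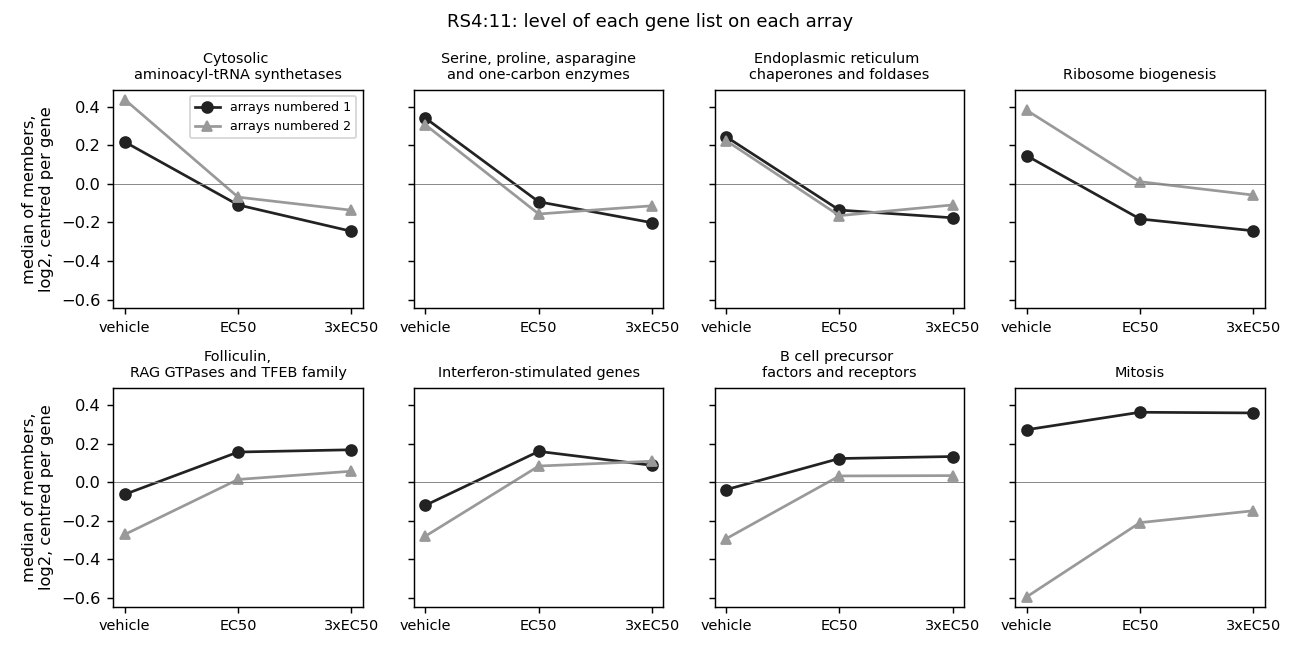
Median log2 level of the members of 8 gene lists on each RS4:11 array, centred per gene, for vehicle, EC50 and 3xEC50 (x axis), with arrays numbered 1 as black circles and those numbered 2 as grey triangles. The synthetase, serine, chaperone and ribosome biogenesis lists lie lower at 3xEC50 than in vehicle for both array numbers, while the mitosis list is split by array number, with vehicle array 2 lowest.

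The remaining lists gave few members at an unadjusted p under 0.05. Metallothioneins with their factor had a median of 0.21 with 6 of 8 above 0, of which MT1F read 10.79 and 10.32 in vehicle and 11.17 and 10.86 at 3xEC50, while the list median was 0.10 without vehicle replicate 2 and 0.12 without 3xEC50 replicate 1. All 6 metallothionein genes were read by probe sets of the less specific _x_at type. Without those no metallothionein gene remained, and the median of the list was -0.34. MTF1, the zinc-sensing factor, was lower instead, at 7.60 and 7.61 in vehicle and 7.08 and 7.05 at 3xEC50. Among immediate early genes DUSP1, a MAP kinase phosphatase, was higher (0.73 ± 0.24) and FOSL2 of the AP-1 family lower (-0.58 ± 0.22). CYLD, a deubiquitinase of NF-kappaB signalling, was the member of the caspase and death receptor list with the smallest p (0.63 ± 0.20, with probe sets from -0.16 to 0.63). SDHD of respiratory complex II was higher by 0.52 ± 0.16, and PFKM of glycolysis differed by -0.36 ± 0.15. Cholesterol synthesis (0 of 19), fatty acid synthesis (0 of 10), NRF2 response (0 of 12), circadian clock (0 of 12) and MYC network genes (0 of 9) had no member at an unadjusted p under 0.05.

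RS4:11 at EC50 shares the vehicle arrays with the higher dose, so the values of both are only set side by side. At EC50 limma called 0 genes (0%), with 261 higher (2.47%) and 183 lower (1.73%) at an unadjusted p under 0.05. USP18 read 6.14 and 6.46 at EC50, and SLC7A11 5.91 and 4.35, next to 6.37 and 6.82 and 5.71 and 4.70 at 3xEC50. FLCN differed from vehicle by 1.06 at EC50 and 0.95 at 3xEC50, and PYCR3 by -0.93 and -1.03. The list medians were -0.40 and -0.48 for cytosolic synthetases, -0.33 and -0.36 for ER chaperones, -0.37 and -0.43 for ribosome biogenesis, 0.26 and 0.21 for interferon-stimulated genes and 0.24 at both doses for the folliculin list. USP18 was 0.29 higher at 3xEC50 than at EC50.

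SEM-K2 at 3xEC50, whose arrays are separate from those of RS4:11, had 87 genes called against its own vehicle (0.824%). One of its 3xEC50 arrays, replicate 2, had the highest 3' minus 5' differences of the series (1.97 for ACTB and 0.61 for GAPDH), and without it 18 genes were called, with the remaining 3xEC50 array assumed to vary like the other groups. The differences of RS4:11 and SEM-K2 correlated at r = 0.405 across genes, which are not independent replicates. USP18 rose by 2.30 in SEM-K2 (adjusted p = 0.0390 by limma) next to 2.66 in RS4:11, FLCN rose by 1.38 next to 0.95, FNIP2 by 1.04 next to 0.84, and BACH2 by 2.01 next to 0.87. GPR18 and TNFAIP3, at 2.85 and 2.83, also rose there. Without SEM-K2 3xEC50 replicate 2 FLCN (1.39, adjusted p = 0.0452 by limma) and BACH2 (1.97, adjusted p = 0.0152) still passed, and USP18 (2.08), FNIP2 (1.02), GPR18 (3.14) and TNFAIP3 (2.81) did not. The medians of the amino acid lists lay nearer 0 in SEM-K2: the cytosolic synthetase median was -0.12 in SEM-K2 against -0.48, that of the serine, proline and asparagine list -0.08 against -0.42 and that of the transporters -0.04 against -0.32. Without SEM-K2 3xEC50 replicate 2 these SEM-K2 medians were -0.23, -0.20 and -0.06. That of the mitochondrial synthetases was -0.04 with that array and -0.21 without it, next to -0.21 in RS4:11. Other lists did not lie so near 0 in SEM-K2. Its median was -0.41 for ribosome biogenesis (-0.43 in RS4:11) and -0.28 for ER chaperones (-0.36). It was 0.49 for lysosomal genes (0.18 in RS4:11), 0.37 for interferon-stimulated genes (0.21) and 0.41 for the folliculin list (0.24). Without that array these 5 SEM-K2 medians were -0.57, -0.22, 0.55, 0.47 and 0.43.

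Whether the lines differ was tested by the contrast of the responses. It called 4 genes (0.0379%), none of them in a list and none above the floor on any RS4:11 array. At an unadjusted p under 0.05 the response was higher in SEM-K2 for 268 genes (2.54%) and lower for 122 (1.16%). In the list of integrated stress response factors 9 of 22 were higher and 1 lower in SEM-K2, whose median there was 0.37 next to -0.04. The NF-kappaB list had 6 of 13 higher and 0 lower, the cytosolic synthetases 4 of 17 higher and 0 lower, and the serine, proline and asparagine list 4 of 13 higher and 0 lower. No member of these lists passed the adjusted threshold for the difference. TRIB3, a pseudokinase induced by ATF4 and CHOP, differed by 1.08 ± 0.22 (SEM-K2 minus RS4:11; adjusted p = 0.415 by limma), DDIT3 by 1.35 ± 0.32, and NFKBIA, the inhibitor of NF-kappaB, by 1.33 ± 0.34; these were singled out after their values were seen. EYA1 came nearest among the 12 largest of either direction, with 1.02 in SEM-K2 and -1.46 in RS4:11 (adjusted p = 0.0625 for the difference), and was called without RS4:11 vehicle replicate 1. COL5A1 and RIMKLB, at 0.09 and 0.13 in SEM-K2, did not pass the test of the difference either (adjusted p = 0.563 by limma for both). With probe sets averaged, COL5A1 was called for the difference between lines. On its brightest probe set COL5A1 read 3.65 and 3.33 in SEM-K2 at 3xEC50, under the floor.

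**Figure D5:**
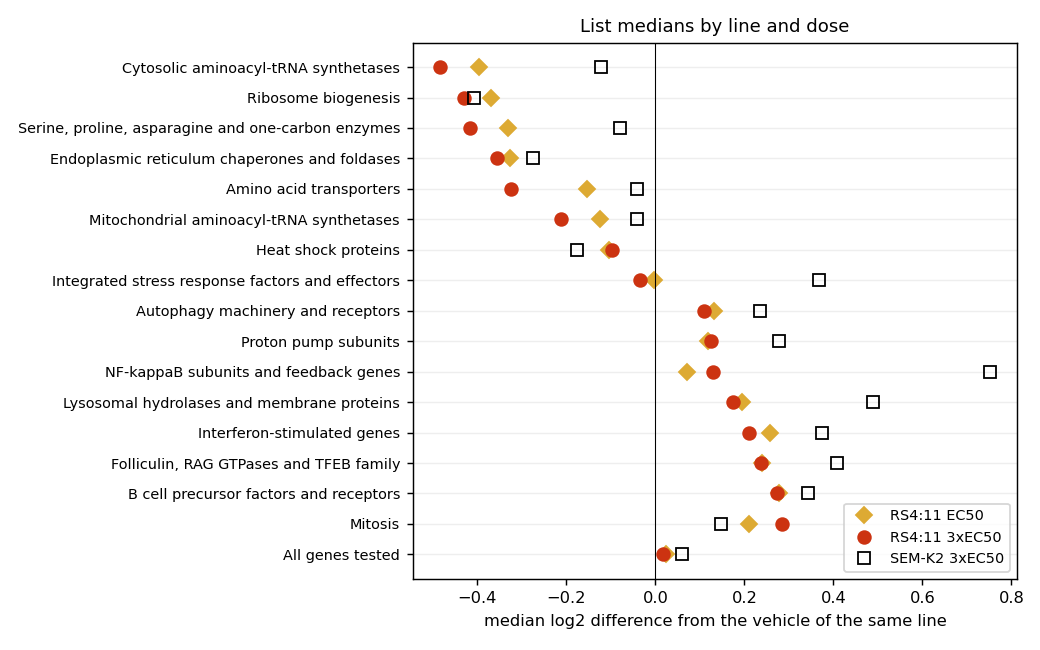
Median log2 difference from vehicle of 16 gene lists and of all genes tested, for RS4:11 at EC50 (diamonds), RS4:11 at 3xEC50 (circles) and SEM-K2 at 3xEC50 (open squares). Both RS4:11 doses lie near each other; they share their vehicle arrays. The cytosolic synthetase list lies farther below 0 in RS4:11, and the NF-kappaB list farther above 0 in SEM-K2, at 0.75.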

How the data were processed

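Affymetrix U133 Plus 2 arrays were processed with GCRMA, per the submitters' processing notes, which give no version and no scale. Their range fits log2, and the deposited numbers were used as log2 values. Of 54675 probe sets 41097 had a single gene symbol, and each gene was represented by its brightest probe set (mean of 12 arrays). Genes above 4 in at least 2 of 12 arrays were tested (10561). Limma 3.58.1 in R 4.3.3 fitted 6 group means over 12 arrays, with 6 residual and 3.27 prior degrees of freedom. Benjamini-Hochberg adjustment was over all genes. The fit was also run on simulated data with independent noise, which leaves out the shared deviation of same-numbered arrays seen here. A mean under 4 was set to 4 for a fold, given as "at least". Of 843 genes in 38 lists, 648 were tested. The contrasts, lists and rules were chosen with earlier results of these data known. Named were the 12 largest differences each way (floored at 4) among genes with separate arrays, an unadjusted p under 0.05 and a mean above the floor, up to 3 members per list with separate arrays by smallest p, the called genes of the difference between lines and the most abundant BCL2 family genes; others are marked. Promoters of 8729 genes tested were matched to RefSeq by symbol. The 1801 probe sets with several symbols were left out. Few arrays limit the precision. Alternatives are in the closing section.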

Additional observations from a re-analysis of the deposited data

Results flagged for a closer look

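The response at 3xEC50 differed between the lines, by limma's contrast of SEM-K2 minus RS4:11, in 4 genes at an adjusted p under 0.05. The differences were 4.24 for the scaffold gene KANK1, 3.62 for ENPP2, which encodes autotaxin, 3.06 for the lipid antigen-presenting molecule CD1A and -2.18 for the homeobox gene DLX2 (log2). All 4 lay under the floor on every RS4:11 array, so the RS4:11 values carry no order and the difference rests on SEM-K2, one of whose 3xEC50 arrays had the highest 3' minus 5' differences. Setting the filter within the RS4:11 arrays left these genes out and called 0. Without SEM-K2 3xEC50 replicate 2, KANK1, CD1A and DLX2 were still called and ENPP2 was not.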

How the results depend on the processing

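No count rests on sequencing depth here, and 2 arrays a group limit every value. Same-numbered arrays deviated together (correlations of 0.523 to 0.601 within RS4:11, 0.191 or more over 15 group pairs), but the labels do not say what the numbers mark, so the replicate block is an alternative. With the replicate block over all 12 arrays 531 genes were higher and 500 lower at an unadjusted p under 0.05, and within each line 634 and 551, where the difference between lines called 7. The block with 6 RS4:11 arrays gave 774 and 721, and 1 call at 3xEC50. The block over all arrays called 5 between lines in place of 4, and no block called a gene at EC50. Without a filter 446 were higher and EC50 called 2, and the filter within RS4:11 left 0 calls between lines. Averaging probe sets per gene, 3xEC50 called 1 and EC50 called 1, the synthetase median was -0.58, and 6 genes turned sign: ARID1B (-0.00096), ATP6V1C1 (-0.012), BCL2L2 (0.0024), CREB3L2 (0.23), MCL1 (-0.018) and RPS27 (-0.56). Centring turned AHSP (-0.0061) and DLX2 (-0.0061). The cause was not tested. Leaving out 1 array in turn gave 0 to 1 calls (PSTPIP2 without vehicle replicate 1), 116 to 620 higher and 178 to 339 lower, 0 to 3 calls at EC50 and 1 to 3 between lines. Medians ran from 0.092 to 0.27 for lysosomal genes, 0.21 to 0.36 for interferon-stimulated genes, -0.41 to -0.36 for ER chaperones and 0.17 to 0.42 for the folliculin list. BCL2L2 ran from -0.29 to 0.28, BNIP3L from -0.41 to 1.63 and MCL1 from -0.023 to 0.087. Leaving out SEM-K2 3xEC50 replicate 2, chosen after seeing the data, called 0 at either RS4:11 dose and 4 between lines. Of 170 medians of 10 lists, chosen with results known, 169 kept their sign over all settings, the exception being mitosis without vehicle replicate 2. Over all 38 lists 610 of 646 medians did. The replicate blocks, the fits of 6 or 4 RS4:11 arrays, the trend and robust fit and the SEM-K2 leave-out do not alter these medians. Sign could not change in those settings.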
